A study of Mus musculus with 10 samples.

Results

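The 32 genes described here encode the core proteins of autophagy and of its mitochondrial form, mitophagy, and were measured by RNA-seq in the livers of 10 mice. They were taken by name, with no threshold on a measured value, and each of the 32 was found once among the 38922 genes of the data. All animals were male, wild-type C57BL/6N mice aged 6 weeks, kept on standard chow under a 12 h light and dark cycle, so strain, sex, age and diet were common to both groups. A group of 5 mice received an intraperitoneal injection of CD95-Ab, an antibody that activates the death receptor CD95 (Fas) on hepatocytes, at 0.5 μg/g of body weight. The 5 controls received an equal volume of saline, and all livers were taken after 6 h. The antibody acts on the whole animal and RNA came from whole liver, so these are levels of the mixed tissue at 1 time point. The question for these genes is how the transcripts of the autophagy machinery stood in a liver undergoing acute Fas-driven injury compared to saline-injected controls.

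Autophagy encloses cytoplasm in a double membrane, the autophagosome, and delivers it to the lysosome. The ULK kinase complex starts the process, a lipid kinase complex built on VPS34 and Beclin marks the membrane with the lipid PI3P, and proteins of the ATG8 family (LC3 and GABARAP) are then attached to the growing membrane by a conjugation cascade. Cargo receptors such as p62, NBR1 and optineurin tether marked cargo to ATG8 proteins, while BNIP3 and NIX sit on mitochondria and tether these directly. In liver, autophagy is known for supplying amino acids in fasting and for turning over mitochondria, lipid droplets and glycogen, and the factors TFEB and TFE3 raise transcription of lysosomal and autophagy genes. Transcript levels do not measure the rate at which autophagosomes form or are degraded.

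Each library held between 25965699 and 62097636 counts, so 3 counts corresponded to at most 0.116 CPM when scaled to raw library totals. All other CPM values are gene counts scaled to library totals adjusted by TMM, with factors between 0.849 and 1.142. On that scale the lowest mean of any member was 1.93 CPM. The groups were compared over 13719 tested genes by quasi-likelihood in edgeR, and a gene was called at a false discovery rate (FDR) of 0.05 or less. A value written with ± is the mean and SD of 5 mice, and SE stands for the standard error of the log2 fold change, CD95-Ab against saline. Of all tested genes 47.3% were called, 25.4% as higher and 22.0% as lower after CD95-Ab, and the median log2 fold change of all tested genes was 0.006. This balance depended on scaling, since 2878 genes were higher and 3244 lower with raw library totals, and 3163 and 3591 with upper-quartile factors. Hepatocyte markers stood high in every liver, with Alb between 76150 and 98070 CPM in saline-injected mice and between 30500 and 60980 CPM after CD95-Ab. The summed level of the 5 hepatocyte markers, most of it Alb, lay between 100800 and 127600 CPM in controls and between 45860 and 81830 CPM after CD95-Ab. Of the 5, Alb, Ttr and Cyp2e1 were called as lower, while Apoa1 (FDR = 0.138) and Serpina1c (FDR = 0.274) were not called and overlapped between groups. The 6 erythroid markers summed to between 135 and 325 CPM in controls and to between 1064 and 34010 CPM after CD95-Ab, with CD95-Ab replicates 3 and 4 highest. All 6 erythroid markers were called as higher. The neutrophil markers summed to between 3.81 and 9.96 CPM in controls and to between 93.9 and 366 CPM after CD95-Ab. Of the 7, the 4 that were tested rose, and the granule genes Mpo and Elane were at 0 in some mice of both groups. Markers of other cells also moved upwards, with 4 of 5 endothelial, 4 of 5 T or NK cell, 3 of 4 stellate, 3 of 3 cholangiocyte and 2 of 6 macrophage genes called as higher. In such whole tissue, fewer hepatocytes and less RNA per hepatocyte cannot be told apart, and the part of these shifts in the results below was not tested.

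Most autophagy genes that moved were lower after CD95-Ab. Of the 32 members, all of which were tested, 14 fell, 1 rose and 17 were not called. The 14 that fell make up 43.8% of the members, beside 22.0% of all tested genes. The single gene that rose, Sqstm1, makes up 3.13%, beside 25.4%. The members were chosen with earlier results of these data known, so these shares describe the list and carry no test. The share called in either direction, 46.9%, was close to the 47.3% of all tested genes. The median log2 fold change of the members was -0.31, and 24 of the 32 fitted values were below 0. Falls were moderate, since 4 members fell by a log2 fold change of at least 1, beside 6.92% of tested genes, and none of the 15 called members reached an absolute log2 fold change of 2, which 7.70% of tested genes did with a call. For 9 members every mouse injected with CD95-Ab lay below every control, against 14.7% of tested genes, and for Sqstm1 alone every such mouse lay above every control, against 18.6%.

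**Figure D1:**
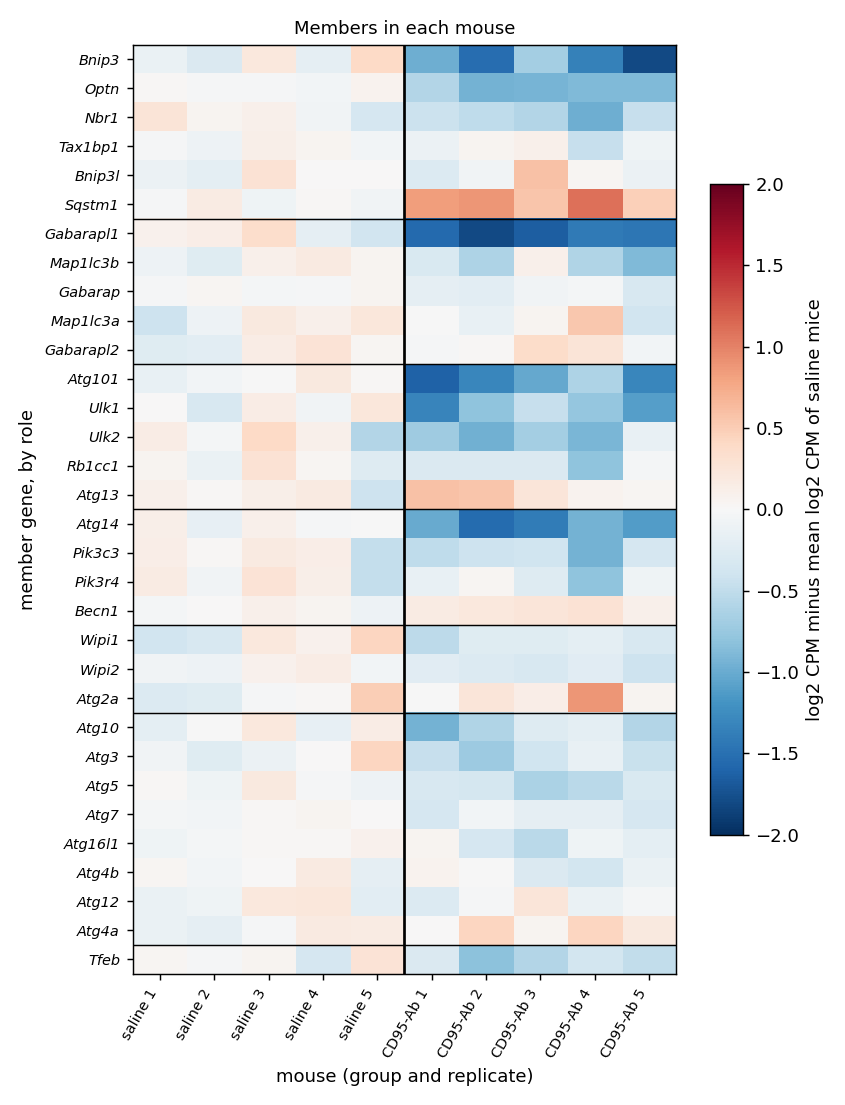
Log2 CPM of the 32 members in each of the 10 mice (columns), each row centred on the mean of the 5 saline-injected mice and grouped by role, with blue for lower and red for higher. Gabarapl1, Bnip3, Atg14, Atg101, Ulk1 and Optn are blue in all 5 mice injected with CD95-Ab and Sqstm1 is red in all 5, while Bnip3l, Map1lc3a and Atg12 show no common direction.

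**Figure D2:**
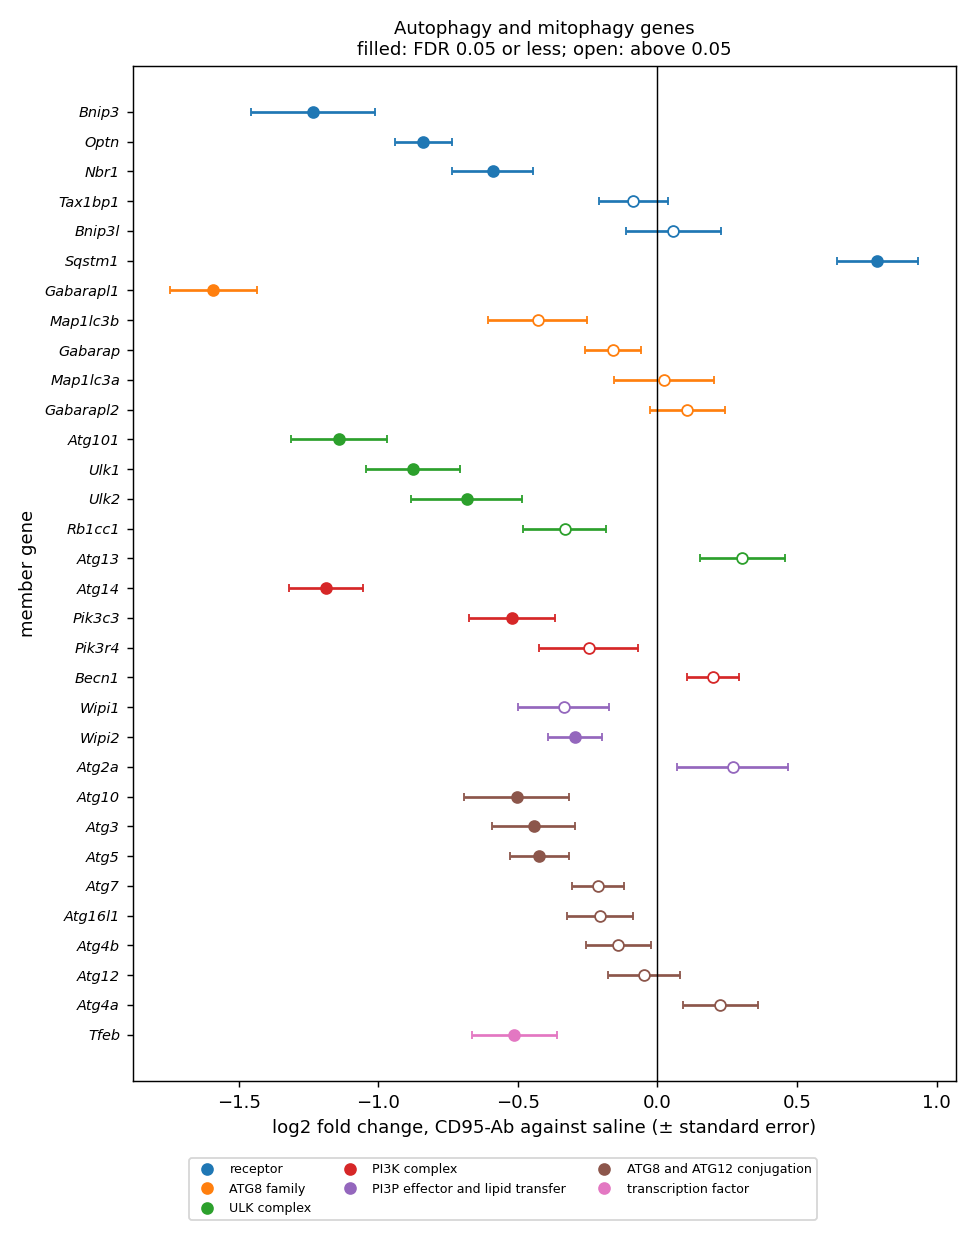
Log2 fold changes of the members, CD95-Ab against saline, with standard errors from edgeR's quasi-likelihood test (n = 5 mice per group), coloured by role. Filled points mark the 15 members with an FDR of 0.05 or less, and values run from -1.59 for Gabarapl1 to 0.79 for Sqstm1.

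Promoter letters of the members are shown as a description. Among those searched was the E-box (CACGTG), the core of the CLEAR element that TFEB and TFE3 are known to bind. A RefSeq promoter window (GRCm38.p6, 250 bases before to 50 after a gene's start) was on hand for 25 of the 32 members and for 27025 genes in all, noncoding genes included. Both strands were searched. The letters GTCACGTG were found in 3 of the 25 members (12.0%), Atg3, Atg7 and Atg14, and in 2.55% of all genes with a window. The shorter CACGTG, which lies within GTCACGTG, was found in these and in Atg5 and Bnip3, 5 members (20%) against 8.09% of all genes. The still shorter ACGTG, the core of hypoxia response elements and part of both letters above, was found in 12 members (48.0%) against 21.8%. Of the 13 members with a window that fell, 4 held CACGTG, as did 1 of the 11 that were not called. For ACGTG these numbers were 6 of 13 and 6 of 11, and for the antioxidant letters TGACNNNGC 1 of 13 and 3 of 11. The antioxidant response letters TGACNNNGC were found in 4 members (16.0%) against 14.0%, and neither the AP-1 letters TGANTCA (8.97% of all genes) nor the ATF4 composite letters TGATGNAA (4.51%) were found in any. The letters TAAACA, the core of a FOXO site, were searched after the sequences had been seen and occurred in 3 members (12.0%) against 15.1%. These are counts of letters, with no test. The windows below run in the direction of transcription, with the E-box or CLEAR-type letters, and for Gabarapl1 the TAAACA letters, in capitals, the longer letters of Atg14 being read from the opposite strand.
Atg3, chr16:45158708-45158788, plus strand: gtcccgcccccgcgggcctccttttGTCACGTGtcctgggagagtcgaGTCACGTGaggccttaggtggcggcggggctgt
Atg7, chr6:114670937-114670994, plus strand: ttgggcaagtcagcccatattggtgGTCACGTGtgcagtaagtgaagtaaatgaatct
Atg14, chr14:47568410-47568460, minus strand: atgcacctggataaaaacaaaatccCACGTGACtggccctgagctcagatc
Atg5, chr10:44268300-44268355, plus strand: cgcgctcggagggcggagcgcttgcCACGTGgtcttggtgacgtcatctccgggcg
Bnip3, chr7:138909584-138909639, minus strand: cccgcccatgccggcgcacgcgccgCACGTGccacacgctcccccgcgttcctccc
Gabarapl1, chr6:129533073-129533128, plus strand: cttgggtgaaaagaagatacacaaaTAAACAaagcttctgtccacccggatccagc
Atg3 is the member with 2 copies of the longer letters, which begin 96 and 73 bases before the start. The RefSeq start used for Atg7 lies 28.0 kb inside the GENCODE gene and that of Atg14 lies 2.2 kb inside it, so these windows belong to inner starts.

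Among the 6 cargo receptors, Sqstm1 rose, Bnip3, Optn and Nbr1 fell, and Tax1bp1 and Bnip3l were not called. Of the 6, 50% fell and 16.7% rose, beside 22.0% and 25.4% of all tested genes. Sqstm1 encodes p62, which binds ubiquitin-marked cargo and is itself degraded by autophagy (ENSMUSG00000015837; GRCm38 chromosome 11, 50199366 to 50210827, minus strand). It stood at 309, 352, 297, 322 and 299 CPM in the 5 controls and at 564, 584, 463, 678 and 437 CPM after CD95-Ab. The groups did not overlap, and CD95-Ab replicate 4 was highest. The log2 fold change was 0.79 (SE 0.15, FDR = 9.52e-04), a level 173% of that in controls. Mrnip, on the opposite strand, shares exon bases with Sqstm1.

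Bnip3, a mitochondrial receptor and a known hypoxia-inducible gene (ENSMUSG00000078566; chromosome 7, 138890836 to 138909519), had the largest fall of the receptors. Its values were 206, 184, 261, 198 and 297 CPM in controls and 115, 78.3, 141, 88.0 and 64.4 CPM after CD95-Ab, again without overlap. The log2 fold change was -1.24 (SE 0.22, FDR = 7.64e-04), or 42.5% of the saline level. Bnip3 was also the most variable member among mice injected with CD95-Ab, with a coefficient of variation of 31.6%. Its relative Bnip3l, which encodes NIX, the receptor that clears mitochondria from maturing red cells, was at 77.3 ± 10.5 CPM in controls and at 80.5 ± 20.5 CPM after CD95-Ab (log2 fold change 0.06, SE 0.17, FDR = 0.801). The highest Bnip3l value, 116 CPM, was that of CD95-Ab replicate 3, the mouse with the highest erythroid marker sum. In CD95-Ab replicate 4, which had the next highest sum, Bnip3l was at 79.2 CPM, within the range of controls. A link between the 2 was not tested.

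Optn encodes optineurin, a receptor for damaged mitochondria and bacteria that the kinase TBK1 activates. Its values were 74.1, 72.0, 72.2, 70.5 and 77.1 CPM in controls and 48.6, 38.1, 38.5, 39.7 and 39.7 CPM after CD95-Ab. Controls were within a narrow band and all 5 treated mice lay well below it (log2 fold change -0.84, SE 0.10, FDR = 5.29e-05). Nbr1, a receptor related to p62 that is known for the clearance of peroxisomes, fell from 176 ± 26 to 117 ± 16 CPM (log2 fold change -0.59, FDR = 0.00575), the mice of the groups not overlapping. Tax1bp1, a ubiquitin-binding receptor, was at 117 ± 7 CPM in controls and 110 ± 16 CPM after CD95-Ab (FDR = 0.589). Thus p62 was the only receptor transcript of the 6 with a call upwards.

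**Figure D3:**
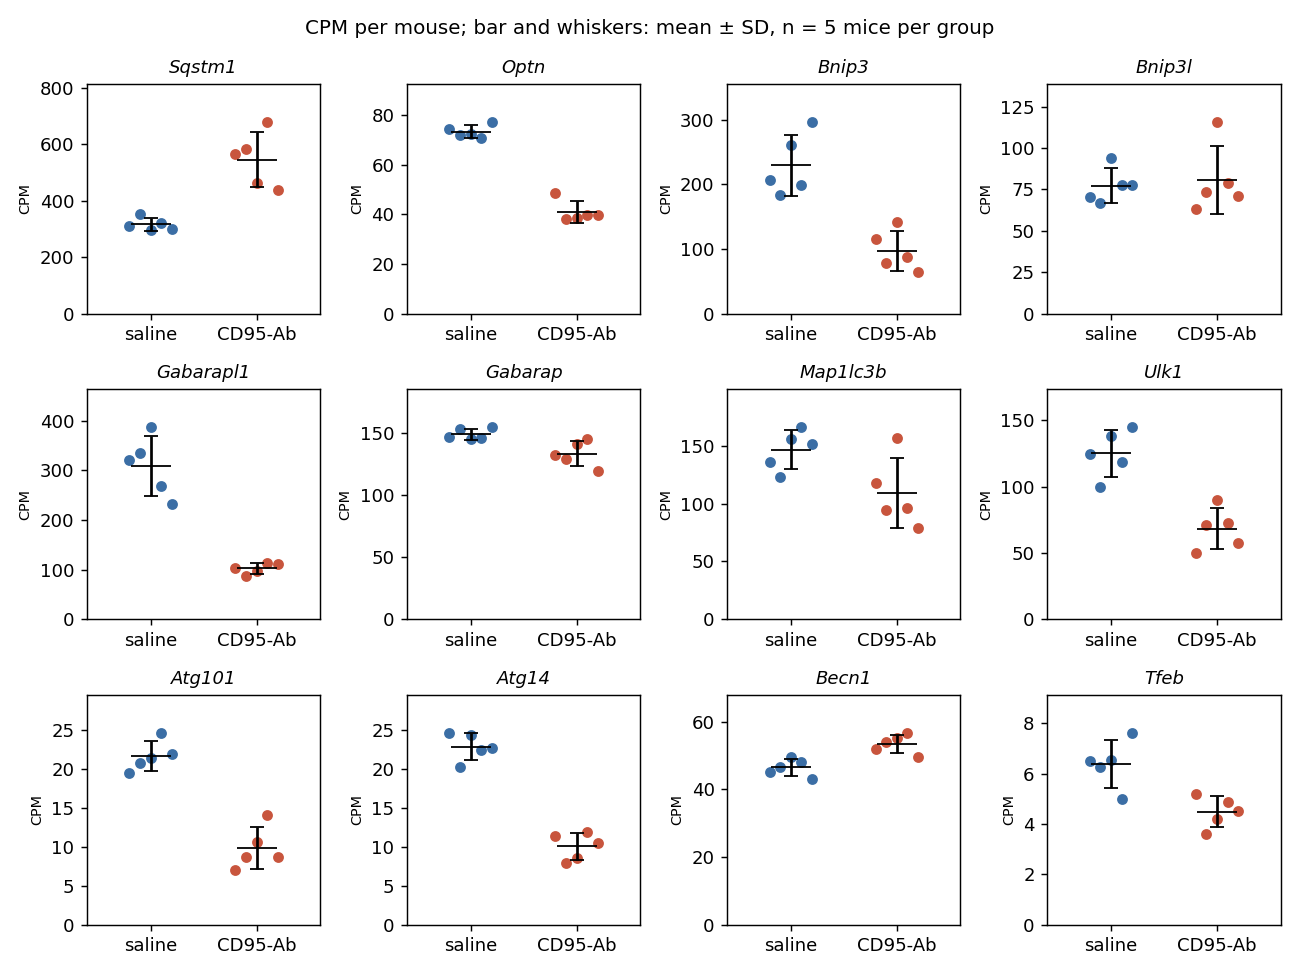
CPM of 12 members in each mouse, with saline in blue and CD95-Ab in red, and the mean ± SD of 5 mice per group in black. Groups are apart for Sqstm1 (upwards) and for Optn, Bnip3, Gabarapl1, Ulk1, Atg101 and Atg14 (downwards), and overlap for Bnip3l, Gabarap, Map1lc3b, Becn1 and Tfeb.

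Of the 5 ATG8 family genes, Gabarapl1 alone was called (20%, beside 47.3% of all tested genes). Its fall was the largest of all members. Gabarapl1 (ENSMUSG00000030161; chromosome 6, 129533160 to 129542346, plus strand) encodes a GABARAP-type protein that is conjugated to the autophagosome membrane. It stood at 321, 334, 386, 268 and 233 CPM in controls and at 103, 87.0, 96.9, 114 and 111 CPM after CD95-Ab. The lowest control was thus above the highest treated mouse by more than 100 CPM. The log2 fold change was -1.59 (SE 0.16, FDR = 1.01e-05), or 33.2% of the saline level. A noncoding gene on the opposite strand shares exon bases with Gabarapl1, but held few counts.

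The other ATG8 genes stayed nearer to their control levels. Map1lc3b, which encodes LC3B, the usual marker protein of autophagosomes, was at 137, 124, 156, 166 and 152 CPM in controls. After CD95-Ab it was at 118, 94.8, 157, 96.4 and 78.9 CPM. The groups overlapped through CD95-Ab replicate 3, and the fold change did not pass the threshold (log2 fold change -0.43, SE 0.18, FDR = 0.0665). Without that mouse the log2 fold change of Map1lc3b was -0.60 with an FDR of 0.00867. Gabarap was at 149 ± 4 and 133 ± 10 CPM, Gabarapl2 at 44.7 ± 6.8 and 48.2 ± 6.3 CPM, and Map1lc3a at 19.4 ± 3.4 and 19.8 ± 5.0 CPM in controls and after CD95-Ab, with FDR values of 0.213, 0.542 and 0.923.

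Per transcript length, Gabarapl1 held the largest part of the family in 4 of the 5 control livers, and Gabarap did so by a narrow margin in saline replicate 5 (33.1% against 33.0%). Its share of the summed FPKM (deposited by the authors and scaled for transcript length and library) of the 5 genes was between 33.0% and 45.6% in controls, with a median of 43.7%, and between 16.7% and 23.9% after CD95-Ab, with a median of 20.1%. Gabarap held between 26.5% and 33.1% in controls and between 38.2% and 43.1% after CD95-Ab, which made it the largest part in all 5 treated mice. The share of Gabarapl2 went from between 7.19% and 9.79% to between 11.7% and 14.1%. The share of Map1lc3b overlapped between groups, at 14.2% to 18.6% and 14.1% to 24.0%. Shares add up to a fixed total, so a lower share of Gabarapl1 alone raises those of the rest. The summed FPKM of the family was between 358 and 514 in controls and between 273 and 339 after CD95-Ab. FPKM were used as deposited, without the adjustment of library totals made for CPM, and the part of scaling in this difference was not tested.

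**Figure D4:**
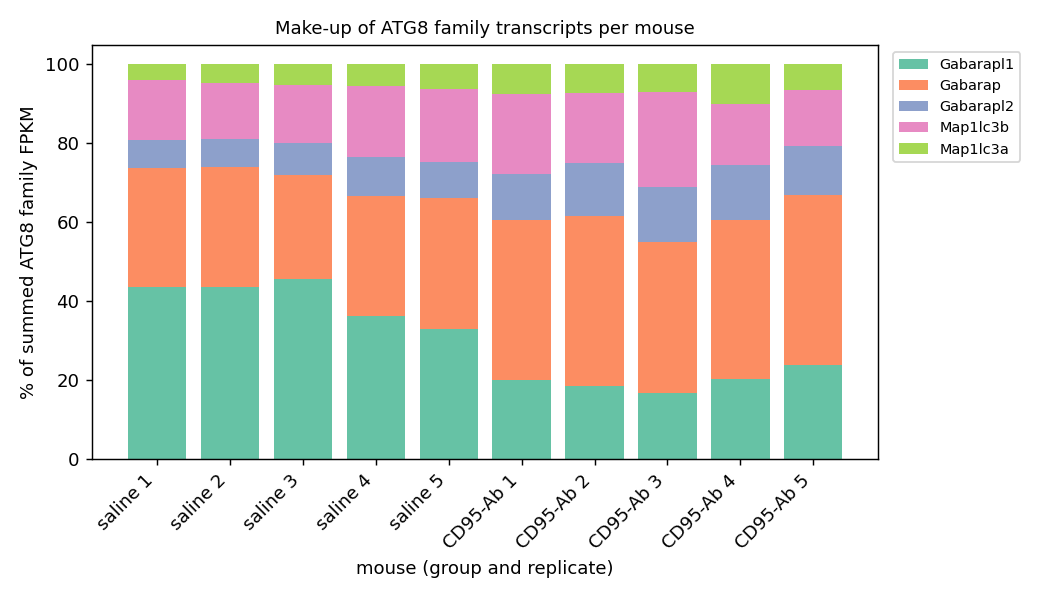
Share of each ATG8 family gene in the summed FPKM of the family, 1 stacked bar per mouse. Gabarapl1 takes 33.0% to 45.6% in the 5 saline-injected mice and 16.7% to 23.9% in the 5 mice injected with CD95-Ab.

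Of the 5 genes of the ULK complex, 3 fell (60%) and none rose, beside 22.0% and 25.4% of all tested genes. Atg101, a small stabilising subunit (ENSMUSG00000037204; chromosome 15, 101284272 to 101290945), stood at 19.5, 20.7, 21.4, 24.6 and 22.0 CPM in controls and at 6.996, 8.69, 10.6, 14.1 and 8.72 CPM after CD95-Ab. The groups did not overlap (log2 fold change -1.14, SE 0.17, FDR = 2.31e-04). Ulk1, the kinase that starts autophagy (ENSMUSG00000029512; chromosome 5, 110784488 to 110810097), stood at 125, 99.6, 138, 118 and 145 CPM in controls and at 49.9, 70.8, 90.01, 72.7 and 57.7 CPM after CD95-Ab. It was lower in all treated mice than in any control (log2 fold change -0.88, SE 0.17, FDR = 0.00123). Its relative Ulk2 fell from 56.35 ± 13.04 to 35.04 ± 8.67 CPM (FDR = 0.0138), with CD95-Ab replicate 5 at 49.8 CPM within the range of controls. Without CD95-Ab replicates 3 and 4, which had the most haemoglobin counts, the log2 fold change of Ulk2 was -0.61 in place of -0.68 and, with 2 mice fewer, its FDR was 0.0565. The scaffold genes were not called. Rb1cc1, which encodes FIP200, had a log2 fold change of -0.33 (FDR = 0.0853) and Atg13 of 0.30 (FDR = 0.12).

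In the lipid kinase complex, the subunit that commits it to autophagy fell most. Atg14 directs VPS34 to the site where autophagosomes form (ENSMUSG00000037526; chromosome 14, 47540893 to 47570649, minus strand), and its window above holds the CLEAR-type letters at an inner start. It stood at 24.6, 20.3, 24.3, 22.4 and 22.6 CPM in controls and at 11.4, 7.87, 8.60, 11.8 and 10.5 CPM after CD95-Ab, so that every treated mouse was at less than 12 CPM and every control above 20. The log2 fold change was -1.19 (SE 0.13, FDR = 2.75e-05), or 43.9% of the saline level. Pik3c3, the catalytic subunit VPS34, fell from 16.2 ± 2.7 to 11.3 ± 1.7 CPM (log2 fold change -0.52, FDR = 0.0153), with overlap through saline replicate 5 at 11.6 CPM. The regulatory subunit gene Pik3r4 was at 16.7 ± 3.1 and 14.0 ± 2.9 CPM (FDR = 0.276). Becn1, which encodes Beclin 1, a partner of BCL2 as well, was at 45.2, 46.6, 49.7, 48.2 and 43.1 CPM in controls and at 51.9, 54.0, 55.1, 56.7 and 49.7 CPM after CD95-Ab. The treated mice touched the range of controls at its upper end, and no call was made (log2 fold change 0.20, SE 0.09, FDR = 0.0981). With DESeq2, Becn1 passed the threshold at an FDR of 0.0358.

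No gene of the conjugation cascade or of the membrane effectors reached a log2 fold change of 1 in either direction. Of the 8 conjugation genes, 3 fell (37.5%) and none rose, beside 22.0% and 25.4% of all tested genes. Atg5, which forms the ligase with ATG12 and ATG16L1, fell from 34.84 ± 2.91 to 25.95 ± 2.58 CPM (log2 fold change -0.42, FDR = 0.00617), with no overlap. Atg3, the E2-like enzyme that loads ATG8 proteins on lipid and the member with 2 CLEAR-type matches, went from 51.9 ± 10.1 to 38.2 ± 5.5 CPM (log2 fold change -0.44, FDR = 0.0281). Atg10, the E2-like enzyme for ATG12 and the least abundant member, went from 2.73 ± 0.34 to 1.93 ± 0.39 CPM (log2 fold change -0.50, FDR = 0.0432). The calls of Atg3 and Atg10 were near the threshold. Atg3 lost its call without any of saline replicate 5 and CD95-Ab replicates 1, 2, 3 and 5, with an FDR of at most 0.075. Atg10 lost its call without any of saline replicates 2, 3 and 5 and CD95-Ab replicates 1, 2 and 5, with an FDR of at most 0.0939.
The E1-like enzyme Atg7 was at 29.9 ± 1.0 and 25.8 ± 2.1 CPM (FDR = 0.0777). Atg12, Atg16l1 and the proteases Atg4a and Atg4b were not called either, with log2 fold changes between -0.21 for Atg16l1 and 0.23 for Atg4a. Wipi2, which reads PI3P and recruits ATG16L1, fell from 66.5 ± 5.0 to 54.1 ± 2.9 CPM (log2 fold change -0.30, FDR = 0.0267) without overlap. Its call was lost without saline replicate 3 or 4 or CD95-Ab replicate 2, 3 or 5, with an FDR of at most 0.059. Wipi1 (log2 fold change -0.34, FDR = 0.11) and the lipid transfer gene Atg2a (0.27, FDR = 0.289) were not called, and the Atg2a mean of treated mice leaned on CD95-Ab replicate 4, at 105 CPM.

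Tfeb, the transcription factor of the list, was at 6.49, 6.26, 6.56, 5.003 and 7.62 CPM in controls and at 5.20, 3.60, 4.22, 4.88 and 4.52 CPM after CD95-Ab (ENSMUSG00000023990; chromosome 17, 47737030 to 47792419). Saline replicate 4 and CD95-Ab replicate 1 overlapped. The log2 fold change was -0.51 (SE 0.15, FDR = 0.0158). The related factor genes went the other way. Tfe3 was at 21.3, 23.0, 19.98, 19.3 and 22.7 CPM in controls and at 54.7, 66.6, 55.5, 56.9 and 47.4 CPM after CD95-Ab, a log2 fold change of 1.40 (SE 0.11, FDR = 2.9e-06). Mitf, at a lower level, rose from 2.15 ± 0.32 to 4.77 ± 0.58 CPM (log2 fold change 1.153, FDR = 1.3e-04). Neither group of mice overlapped the other for Tfe3 or Mitf.

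Related genes were then compared within each mouse, since a ratio within a library does not depend on how libraries are scaled. The 9 pairs were chosen after the values had been seen, so these ratios describe the data and carry no test. The ratio of Bnip3 to Bnip3l was between 2.56 and 3.83 in controls and between 0.911 and 1.82 after CD95-Ab, a difference of -1.30 in mean log2 ratio. The ratio of Gabarapl1 to Gabarap was between 1.51 and 2.67 in controls and between 0.676 and 0.931 after CD95-Ab (log2 difference -1.41), and that of Gabarapl1 to Gabarapl2 was between 5.02 and 8.73 and then between 1.70 and 2.60 (log2 difference -1.69). The ratio of Tfe3 to Tfeb was between 2.98 and 3.85 in controls and between 10.5 and 18.5 after CD95-Ab (log2 difference 1.91). No mouse crossed between groups in any of these 4 pairs.
In the other 5 pairs the ranges of the groups overlapped. The log2 difference was -0.47 for Map1lc3b against Map1lc3a, -0.27 for Gabarap against Gabarapl2, -0.21 for Ulk1 against Ulk2, -0.01 for Wipi1 against Wipi2 and 0.37 for Atg4a against Atg4b.

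**Figure D5:**
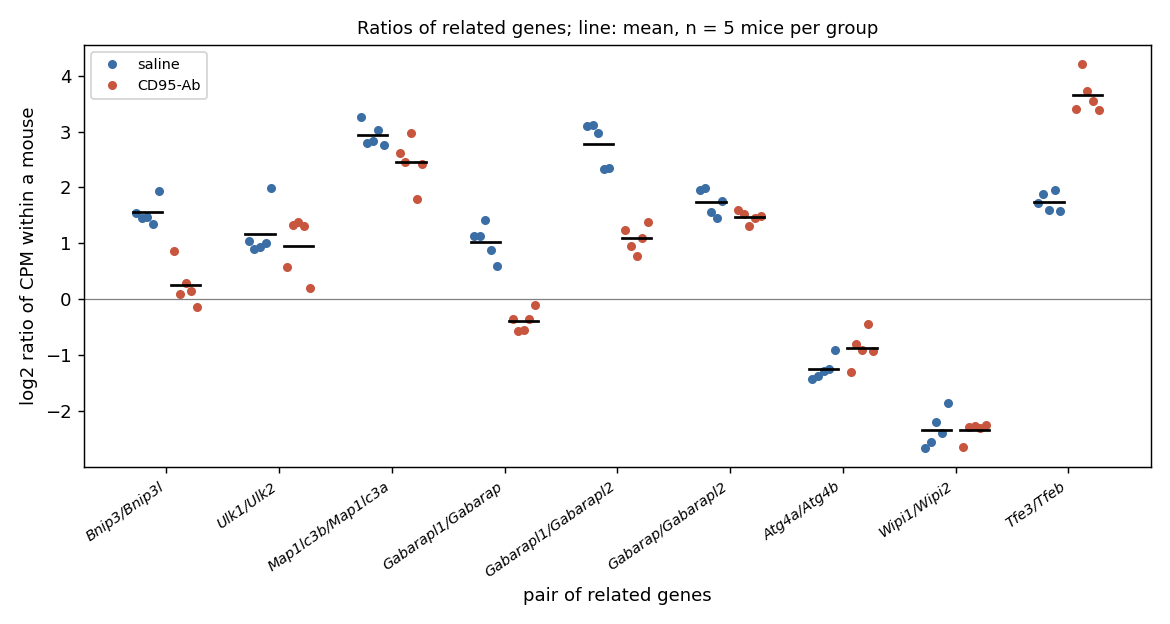
Log2 ratio of CPM of 9 pairs of related genes within each mouse, saline in blue and CD95-Ab in red, with black lines at the mean of 5 mice per group. The mice are apart for Bnip3/Bnip3l, Gabarapl1/Gabarap, Gabarapl1/Gabarapl2 and Tfe3/Tfeb, with mean differences of -1.30, -1.41, -1.69 and 1.91.

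Compared per transcript length, the members spanned a wide range of levels in control livers. By median FPKM the highest were Gabarapl1 (211), Sqstm1 (174), Bnip3 (143) and Gabarap (136), and the lowest were Pik3r4 (3.69), Tfeb (3.67) and Atg10 (1.72). Neighbours in this order mostly could not be separated, because the ranges of 28 of the 31 neighbouring pairs overlapped among the 5 controls. The ranges were apart between Gabarap and Map1lc3b (73.1), between Map1lc3b and Nbr1 (53.1), and between Tfeb and Atg10. After CD95-Ab the order was led by Sqstm1 (328), Gabarap (117) and Gabarapl1 (56.3). The place of Atg101 went from 15 to 22 and that of Atg14 from 26 to 30. The scatter of CPM within a group was similar, with a median coefficient of variation over members of 13.8% in controls, the lowest being that of Gabarap at 2.95%, and of 14.8% after CD95-Ab.

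Other genes of the pathway were taken from 4 lists that hold no member. Like the members, they were chosen with earlier results of these data known, so their shares are a description as well. Of 29 further genes of the autophagosome machinery, 28 were tested, of which 11 fell (39.3%) and 3 rose (10.7%), beside 22.0% and 25.4% of all tested genes, with a median log2 fold change of -0.27. Stx17, the SNARE that fuses the autophagosome with the lysosome, fell from 21.8 ± 2.9 to 10.5 ± 1.6 CPM (log2 fold change -1.05, FDR = 7.96e-05). Atg16l2, a homologue of Atg16l1, rose from 15.4 ± 11.4 to 48.5 ± 16.5 CPM (log2 fold change 1.65, FDR = 0.00599), with saline replicate 5 at 34.8 CPM and the rest of the controls at no more than 16.6 CPM. The other genes that rose, named after their values were seen, were Sh3glb1, a Beclin partner that bends membranes (log2 fold change 0.71, FDR = 3.84e-04), and the PI3P-binding Wdr45b (0.48, FDR = 0.00721). Atg9b was not tested for lack of counts.

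Of 16 genes of selective autophagy, 15 were tested, of which 6 fell (40%) and 1 rose (6.67%), beside 22.0% and 25.4% of all tested genes. The median log2 fold change of the list was -0.19. Calcoco1, a receptor for the endoplasmic reticulum and Golgi, fell from 34.6 ± 2.7 to 11.1 ± 0.8 CPM (log2 fold change -1.63, SE 0.10, FDR = 6.42e-07). Stbd1, a receptor for glycogen, fell from 83.7 ± 18.6 to 27.7 ± 13.6 CPM (log2 fold change -1.59, FDR = 8.07e-04). The gene that rose was Tbk1, the kinase that phosphorylates optineurin and p62, which went from 22.6 ± 0.4 to 41.2 ± 2.9 CPM (log2 fold change 0.87, FDR = 1.58e-05) and was named after its value was seen, while Optn itself fell. Pink1, the kinase that marks damaged mitochondria, was also looked up afterwards and fell from 131 ± 10 to 82.5 ± 8.2 CPM (FDR = 4.91e-04).

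Of 20 upstream regulators, 7 fell (35%) and 2 rose (10%), beside 22.0% and 25.4% of all tested genes. The 2 that rose were Tfe3 and Mitf above, and the median log2 fold change of the list was -0.28. Trib3, a stress-induced pseudokinase, fell from 14.4 ± 1.9 to 6.28 ± 2.76 CPM (log2 fold change -1.20, FDR = 0.00224). Of 26 lysosomal genes, 5 fell (19.2%), 2 rose (7.69%) and 19 were not called, with a median log2 fold change of -0.05. The share that fell was near the 22.0% of all tested genes, and the share that rose was below their 25.4%. In either direction 26.9% were called, beside 47.3% of all tested genes. Npc1, the lysosomal cholesterol exporter, fell from 124 ± 12 to 44.98 ± 10.22 CPM (log2 fold change -1.46, FDR = 2.13e-05). The genes that rose, again named after their values were seen, were Gla, α-galactosidase (log2 fold change 0.79, FDR = 0.00295), and the proton pump subunit gene Atp6v0e (0.44, FDR = 0.00586). Over the 4 lists 29 genes fell (32.6%) and 8 rose (8.99%) of 89 tested, beside 22.0% and 25.4% of all tested genes. The share of the 4 lists called in either direction was 41.6%, beside 47.3%.

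The direction of the member calls did not hang on the mice that stood apart. Saline replicate 5 and CD95-Ab replicate 4 lay farthest out on the second principal component, which held 9.8% of the variance. Without them 15 members fell and 1 rose, beside 3457 and 3636 of all 13784 genes tested in that fit. Without CD95-Ab replicates 3 and 4, the mice with the most haemoglobin counts, 14 members fell and 1 rose. Of all 14163 genes tested in that fit, 3088 fell and 3349 rose. In all 10 fits that left out a single mouse, Sqstm1 was the only member called as higher, and between 11 and 15 members were called as lower. Of all tested genes, these fits called 3142 to 3581 as higher and 2474 to 3396 as lower. A set of 9 members was called in each fit and at each threshold tried: Sqstm1, Gabarapl1, Bnip3, Atg14, Atg101, Ulk1, Optn, Nbr1 and Atg5.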

How the data were processed

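Whole-liver RNA of 10 mice, which the labels call biological replicates, was read as pairs of 100 bp from TruSeq libraries. The authors assigned reads with RSEM 1.2.19. The expected counts that the authors deposited were whole numbers without normalization, and the FPKM values deposited beside them were scaled for length and library. The paper names a human annotation for this step although identifiers are mouse Ensembl genes; the mouse release and build are not given in the sources used here. Symbols and positions came from mouse GENCODE release 21 (GRCm38), which held 37606 of the 38922 identifiers. RSEM shares out reads that fit several genes. Stretches of at least 200 bases with at least 90% identity in other genes were found for 6 members (Atg4a, Bnip3, Bnip3l, Gabarapl2, Map1lc3b and Rb1cc1), and Sqstm1, Becn1, Map1lc3b, Gabarapl1, Optn and Rb1cc1 share exon bases with a gene on the opposite strand. No strand setting is stated, so these values are less certain.

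Genes passing filterByExpr (minimum count 10) were scaled by TMM and tested by quasi-likelihood (edgeR 4.0.16, R 4.3.3) between groups, with Benjamini-Hochberg adjustment over all tested genes. Standard errors are the log2 fold change over the square root of F, and CPM use TMM-adjusted totals. The procedure was run on simulated data for this comparison, with 13247 genes, of which 200 had a log2 fold change of 2. Of these 100% were recovered, and 4.3% of calls were other genes. Recovery at smaller log2 fold changes, such as those of all called members, was not tested. Scaling with 47.3% of genes called, as in these data, was not tested either. Alternatives were DESeq2 1.42.0, raw totals, upper-quartile factors, other filters, a prior count of 2, an FDR of 0.01, a block on replicate number, and fits without each mouse. Fits without pairs of mice, ratios of related genes and the TAAACA letters were added after seeing the data. The members and lists were chosen with earlier results of these data known. Called members with an absolute log2 fold change of at least 1, and Map1lc3b, Becn1, Ulk1 and Tfeb, were to be given for every mouse, as were, by group, genes of other lists past the same limits. Sqstm1, Optn and Tfe3 were given for every mouse after their values were seen. A planned comparison of protein sequences was not made, since no protein sequences were used here. No batch is labelled.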

Additional observations from a re-analysis of the deposited data

Results flagged for a closer look

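Of 64 sets of 5 mice examined (32 members in 2 groups), 4 held a mouse far from the other mice of its group, with a gap to its neighbour above 0.71 of the group's range. Chance alone gives about 1 in 20 such sets. Ulk2 stood at 49.8 CPM in CD95-Ab replicate 5 and at 28.2 to 34.4 CPM in the other treated mice. Atg2a stood at 105 CPM in CD95-Ab replicate 4, against 56.8 to 67.6 CPM. Pik3c3 stood at 11.6 CPM (11.55) in saline replicate 5, against 16.3 to 18.1 CPM in the other controls. Optn stood at 48.6 CPM (48.59) in CD95-Ab replicate 1, against 38.1 to 39.7 CPM, and this value was still below all controls.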

How the results depend on the processing

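With an FDR threshold of 0.01 in place of 0.05, 9 of the 32 members were called instead of 15, and 4492 of all genes. Under the other alternatives the number of called members lay between 12 and 18. Fits that left out 1 mouse called 12 to 16 members, 5616 to 6977 of all genes and 30 to 39 genes of the other lists. Fold changes were refitted for 17 members, the 15 called ones with Map1lc3b and Becn1. Changes of sign in the rest were not examined. A prior count of 2 alters the fitted fold change alone and left every FDR of these as it was, so it could move no call. Of 323 refits, the 17 with a prior count of 2 included, none reversed and 297 stayed on their side of the threshold. A call was lost in 20 (Atg10, Wipi2, Atg3 and Ulk2) and gained in 6. The gains were those of Map1lc3b (FDR 0.0385 with raw totals, 0.031 with upper-quartile factors, 0.0444 with DESeq2, 0.00867 without CD95-Ab replicate 3 and 0.0153 without CD95-Ab replicates 3 and 4) and of Becn1 with DESeq2. Among the other 15 members, calls downwards were gained by Rb1cc1 in 4 fits (upper-quartile factors, without saline replicate 5, without CD95-Ab replicate 5, and without saline replicate 5 and CD95-Ab replicate 4), by Atg7 in 2 (upper-quartile factors and DESeq2) and by Wipi1 in 2 (raw totals and without saline replicate 1). The cause was not tested. The log2 difference of Wipi1 against Wipi2 within a mouse changed sign when 1 mouse was left out, from a lowest of -0.092 to a highest of 0.108.

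Both groups were numbered 1 to 5. Same-numbered mice deviated together with correlations from -0.274 to 0.257, and 4 of 10 mice correlated best with their own number, so the numbers are not taken as pairs. With the replicate block, 13 members were called (without Atg10 and Wipi2), 30 genes of the other lists and 5987 of all genes. At the lowest depth 3 counts equal 0.116 CPM when scaled to raw library totals, and Atg9b had too few counts to be tested.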
